A study of Rattus norvegicus with 20 samples.

Results

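RNA-seq counts were compared between cultured vaginal epithelial cells (vagina) and cultured whisker hair follicle cells (whisker) before any of them was transplanted. The comparison used 4 samples of the 20 in the series, 2 of vagina and 2 of whisker, chosen by the tissue and the stage named in their labels. The study cultured epithelial cells of rats, placed them in the skin of mice, recovered them and asked how cells of hairless epithelia differ from those of a hair follicle before and after that exposure. All cells came from Sprague-Dawley rats of the act-EGFP line, a transgene that marks every cell green and that both groups carry. The vaginal cells were a bulk culture from a donor at postnatal day 200, and the whisker cells were clone 7, the progeny of a single cell, from a donor at postnatal day 57. Both were grown on irradiated mouse 3T3-J2 feeder cells and sorted on EGFP before RNA extraction. Tissue, donor age, bulk or clonal culture, and sex as judged by a Y chromosome gene given below, changed together. Their contributions cannot be told apart. The methods name the whisker bulge clone as an exception to the early passages usually used for transplantation. The passage of the samples compared is not given here. The sources do not state that the 2 samples of a group came from separate animals, so the p-values may measure only the spread between parallel cultures.

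The vagina is lined by a stratified mucosal epithelium, which in the adult rodent follows the ovarian cycle and alternates between a cornified and a mucus-bearing surface. The whisker follicle is a large, densely innervated hair follicle whose stem cells renew the hair, its sheaths and, when challenged, the epidermis. Both epithelia rest on basal cells, and the keratins, transcription factors and secreted proteins that they carry in addition are the usual marks of the tissue of origin.

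The epithelial label held in all 4 libraries. Cdh1, the cadherin of epithelial junctions, was at 828 and 894 CPM (counts relative to all reads on genes, after TMM scaling) in vagina and at 1078 and 975 CPM in whisker. Dsp, the plaque protein of desmosomes, was at 3417 and 3763 CPM in vagina and at 5369 and 4832 CPM in whisker. Krt4, a mucosal keratin, set the vaginal samples apart from whisker. Tfap2b, a transcription factor of facial ectoderm, marked the whisker samples, and the values of both are given below. Krt5, Krt14, Tp63, Lhx2, Sox9 and Krt15 had no identifier paired with them in the supplements and are not analysed here. Between 21678751 and 26135317 reads per sample lay on genes, so 3 reads, the lowest level taken as shown, corresponded to 0.115 to 0.141 CPM. The samples of a group differed from each other by more than sampling noise, with a mean chi-square per gene of 8.41 in vagina and 8.62 in whisker, and were counted as 2 samples each.

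Of 13302 genes tested, 1317 (9.9%) were higher and 1152 (8.66%) were lower in vagina than in whisker. A gene was called at a Benjamini-Hochberg adjusted p under 0.05 in limma voom and a difference of at least 2-fold. At 4-fold or more, 726 genes were higher and 456 lower, and at 16-fold or more 279 were higher and 118 lower. The excess of large differences was thus on the vaginal side, while the median log2 fold change of all genes was 0.01. In 125 of the higher genes the whisker samples held 0 reads, and in 32 of the lower genes the vaginal samples did. The groups did not overlap in any called gene, but they did not overlap in 78.2% of all genes tested either. With 2 samples against 2, an exact permutation test cannot go below p = 0.33, so the calls rest on the spread that limma shares between genes and groups. In bulk RNA, fewer cells of a kind and less RNA per cell cannot be told apart.

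**Figure D1:**
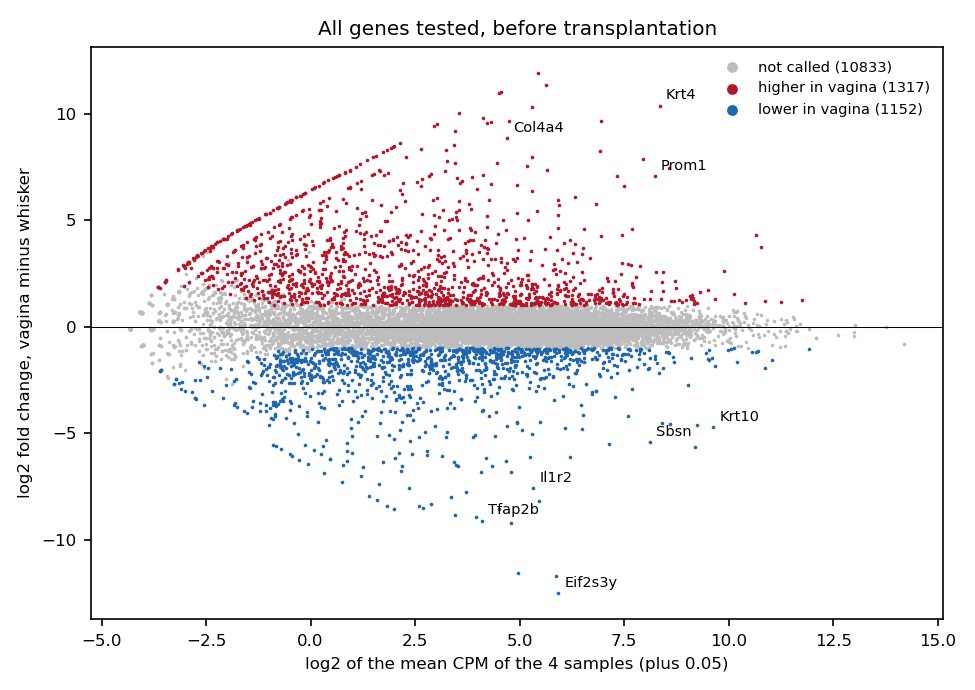
Log2 fold change of vagina minus whisker (vertical) against the log2 mean CPM of the 4 samples (horizontal), 1 point per gene tested. Red marks the 1317 genes higher and blue the 1152 genes lower in vagina, and the straight upper edge at the left holds genes with no or almost no reads in whisker.

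Names were available for 2311 of the genes tested, from identifier and symbol pairs in the study's supplements. These are not a neutral sample. The study listed 433 of them as differing from whisker cells in vagina, bladder, trachea and thymus in common. These same samples were among those used for that list, and 422 of the 433 were called here (59.1% higher and 38.3% lower). A difference from whisker in these genes is thus not by itself particular to vagina. Of all named genes 25.2% were higher and 21.8% lower, and of the 1878 that came from the longer supplement alone 17.4% were higher and 17.9% lower. Counts over gene lists below are to be read against those shares, and they are not independent evidence of a direction.

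Some regulators of urogenital development were among the genes higher in vagina, while Wt1, given below, was among the lower ones. Esr1, the estrogen receptor alpha, was at 20.6 and 17.1 CPM in vagina and at 0.125 and 0 CPM in whisker, a ratio of 287 (95% counting interval 98.0 to 1395, which covers counting error only). Hence the receptor through which estrogen acts on vaginal epithelium was still transcribed in culture, and was near the detection level in whisker cells. Emx2, a homeobox gene required for the urogenital tract, was at 32.4 and 35.6 CPM against 2.08 and 1.92 CPM (log2 fold change 4.07 ± 0.18, SE). In the study's microarrays Emx2 was higher than in hair follicle cells in every non-hairy tissue compared. Its higher level is thus not particular to vagina. Isl1, a LIM homeobox factor, was at 8.07 and 7.62 CPM in vagina with 0 reads in whisker, at least 59.1-fold higher against the level of 3 reads per library. Its name came from the study's list of differences from whisker shared by the non-hairy tissues.

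Hox genes, which record position along the body axis, were higher in vagina where they were called, Hoxb4 and Hoxb3 among them. Hoxb4 was at 3.29 and 2.7 CPM in vagina with 0 reads in whisker, at least 22.6-fold higher. Hoxb3, the neighbor of Hoxb4 in the GRCr8 assembly, was at 3.94 and 4.43 CPM against 0.0416 and 0 CPM, a ratio of 189 (95% counting interval 33.6 to 7504). The names of Hoxb4 and Hoxb3 also came from the study's list of differences shared by the non-hairy tissues. The face, to which the whisker pad belongs, forms in front of the embryonic domain of these genes.

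Another set of transcription factors was held by the whisker clone. Tfap2b, an AP-2 factor of neural crest and facial ectoderm, was at 0.0382 and 0.0443 CPM in vagina and at 35.3 and 32.9 CPM in whisker, a ratio of 833 (95% counting interval 230 to 6886). Wt1, a zinc finger factor best known from the kidney and gonad, was at 0.0382 and 0.0443 CPM in vagina and at 28.7 and 32.8 CPM in whisker, a ratio of 746 (206 to 6163). Each vaginal library held a single read of either gene. Bcl11a, a zinc finger repressor, was at 0.191 and 0.0443 CPM against 28.4 and 23.8 CPM (log2 fold change -7.75 ± 0.62). Tbx1, a T-box factor expressed in hair follicle stem cells and in the pharyngeal region, was at 2.18 and 1.91 CPM against 154 and 135 CPM (log2 fold change -6.12 ± 0.32). Bnc2, a basonuclin, was at 0 and 0.133 CPM against 9.98 and 10.2 CPM, and Irx4, an Iroquois homeobox factor, at 0.0382 and 0.0886 CPM against 6.4 and 6.47 CPM. Of 40 developmental transcription factors tested, 20 were higher and 11 lower in vagina, with a median log2 fold change of 0.84.

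**Figure D2:**
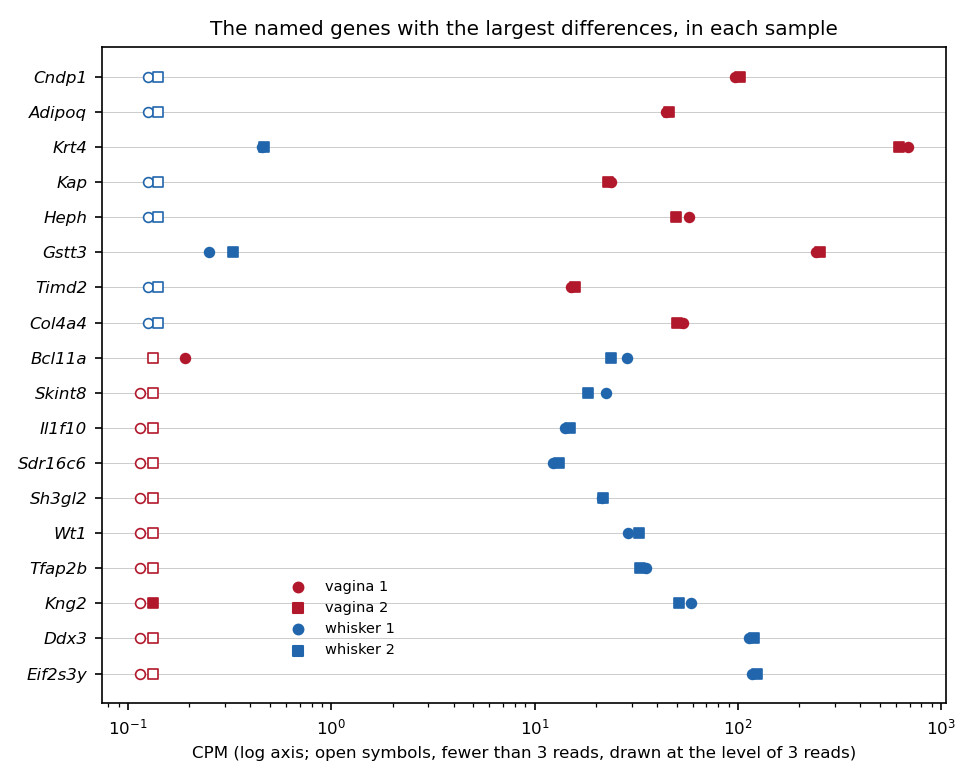
CPM (log axis) in each of the 4 samples for 8 named genes with the highest and 10 with the lowest log2 fold change among called genes with a mean of at least 10 CPM in the higher group. Red symbols are vagina, blue are whisker, and open symbols stand for fewer than 3 reads, drawn at the level of 3 reads; in every gene the samples of a group lie close together and far from the other group.

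Genes at the top of the vaginal side included enzymes, carriers and secreted proteins. Cndp1, a dipeptidase of carnosine, was at 96.8 and 102 CPM in vagina and at 0 and 0.0469 CPM in whisker, a ratio of 4509 (95% counting interval 809 to 178131). Adipoq, the hormone adiponectin, was at 44.5 and 46 CPM with 0 reads in whisker, at least 341-fold higher. Kap, the kidney androgen-regulated protein, was at 23.9 and 23 CPM with 0 reads in whisker, at least 177-fold higher. These products are best known from other organs, yet each was found in both vaginal libraries at similar levels. Reads of Cndp1 and Adipoq were not particular to vagina among the cultured tissues before transplantation. Cndp1 had means of 10.9 CPM in bladder, 3.24 CPM in trachea and 1.09 CPM in thymus. Adipoq had means of 7.34, 4.98 and 0.565 CPM in the same tissues. These levels were above whisker and below vagina. Heph, a copper-dependent ferroxidase that moves iron out of cells, was at 57.6 and 49.5 CPM against 0.0416 and 0.0469 CPM. Timd2, a receptor of the TIM family, was at 15.1 and 15.8 CPM with 0 reads in whisker, at least 116-fold higher. Gstt3, a glutathione transferase, was at 242 and 254 CPM against 0.249 and 0.328 CPM (log2 fold change 9.66 ± 0.58). On the whisker side, Kng2, a kininogen, was at 0.0382 and 0.133 CPM in vagina and at 58.8 and 51.3 CPM in whisker. Sh3gl2, the endocytic protein endophilin A1, was at 0.0765 and 0 CPM against 21.5 and 21.7 CPM. Sdr16c6, a short-chain dehydrogenase, was at 0 and 0.0443 CPM against 12.4 and 13.2 CPM, and Skint8, of the Skint family first described in skin and thymus, at 0.0765 and 0.0443 CPM against 22.5 and 18.4 CPM.

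Genes of mucosal and simple epithelia formed the list with the highest median, markers of other cell types left aside. Of 29 members tested, 20 were higher and 2 lower in vagina, with a median log2 fold change of 3.17 against 0.01 over all genes. Of the 12 whose names came from the longer supplement alone, 4 were higher and 2 lower. The rest came from the study's list of differences from whisker cells, so count and median are partly set by that choice. Krt4, the type II keratin of internal stratified mucosae, was at 683 and 622 CPM in vagina and at 0.457 and 0.469 CPM in whisker (log2 fold change 10.39 ± 1.43, adjusted p = 1.36e-05). Krt8, a keratin of simple epithelia, was at 212 and 274 CPM against 0.832 and 0.703 CPM (log2 fold change 8.26 ± 0.42). Its usual partner Krt18 was at 7.07 and 7.58 CPM against 0.333 and 0.515 CPM (log2 fold change 4.08 ± 0.50). Krt19 was at 27.2 and 35.5 CPM against 0.374 and 0.281 CPM (log2 fold change 6.47 ± 0.60). All 4 mucosal and simple keratins with a paired identifier were therefore low in whisker and clearly present in vagina. Prom1, the membrane protein CD133 of apical protrusions, was at 621 and 573 CPM against 4.53 and 4.31 CPM (log2 fold change 7.07 ± 0.19). Psca, a surface antigen of bladder, prostate and other mucosae, was at 21.6 and 23.5 CPM against 0.166 and 0.141 CPM. Pigr, the receptor that carries IgA across mucosal epithelia, was at 3.36 and 4.96 CPM with 0 reads in whisker, at least 31.4-fold higher. Muc20, a membrane mucin, was at 2.56 and 3.06 CPM with 0 reads in whisker, at least 21.2-fold higher. The members lower in vagina were Cldn3, a tight junction claudin (46.9 and 44.3 CPM against 142 and 141 CPM), and Crnn, cornulin of squamous epithelia (1.34 and 1.95 CPM against 3.78 and 3.23 CPM). The call of Crnn was lost without vagina 1, where its log2 fold change was -0.84.

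Genes of the cornified envelope and the lipid barrier lay on the other side. Of 24 tested, 15 were lower and 3 higher in vagina, with a median log2 fold change of -1.62. Krt10, the keratin of suprabasal epidermis, was at 52.6 and 62.8 CPM in vagina and at 1716 and 1351 CPM in whisker (log2 fold change -4.73 ± 0.12, adjusted p = 5.18e-14). It is not a member of that list and is counted below with the epidermal keratins and desmosomal genes. Sbsn, suprabasin of differentiating keratinocytes, was at 11 and 14.8 CPM against 567 and 515 CPM (log2 fold change -5.41 ± 0.18). Klk7, a protease of corneocyte shedding, was at 0.344 and 0.133 CPM against 23.4 and 20.6 CPM (log2 fold change -6.51 ± 0.69). These 3 products of epidermal differentiation were thus far lower in vagina. The secreted Ecm1 was at 748 and 656 CPM against 830 and 791 CPM and was not called. Endou, an endonuclease of cornifying cells, was at 0.191 and 0.177 CPM against 14.6 and 12.4 CPM (log2 fold change -6.04 ± 0.49). Alox12b, a lipoxygenase of the skin lipid barrier, had 1 read in each vaginal library and was at 1.04 and 1.36 CPM in whisker. Sdr9c7, a dehydrogenase of barrier ceramides, was at 0.688 and 1.73 CPM against 10.8 and 11 CPM, and Dmkn, dermokine, at 21.5 and 29.2 CPM against 213 and 188 CPM. The 3 members higher in vagina were Padi1, an enzyme that citrullinates proteins (14.2 and 16.2 CPM against 0.582 and 0.515 CPM), Fa2h, a fatty acid hydroxylase (22.1 and 29.1 CPM against 1.58 and 1.5 CPM), and Csta, the cystatin A of the envelope (35.9 and 47.1 CPM against 6.4 and 3.75 CPM).

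The desmosomal cadherins differed by member. Dsc2, the desmocollin found in most epithelia, was at 774 and 809 CPM in vagina and at 309 and 267 CPM in whisker (log2 fold change 1.46 ± 0.14). Dsc3, of basal stratified layers, was at 731 and 757 CPM against 1600.2 and 1410.1 CPM (log2 fold change -1.01 ± 0.09), a call that was lost without vagina 1 (-0.98) and without whisker 1 (-0.92). Dsc1, of the upper epidermis, was at 0.344 and 0.576 CPM against 8.69 and 6.33 CPM (log2 fold change -4.02 ± 0.35). Dsg3, a basal desmoglein at 1408 and 1424 CPM in vagina and at 1329 and 1121 CPM in whisker, was not called. Of 11 epidermal keratins and desmosomal genes tested, 1 was higher and 3 lower, Krt10 among them.

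**Figure D3:**
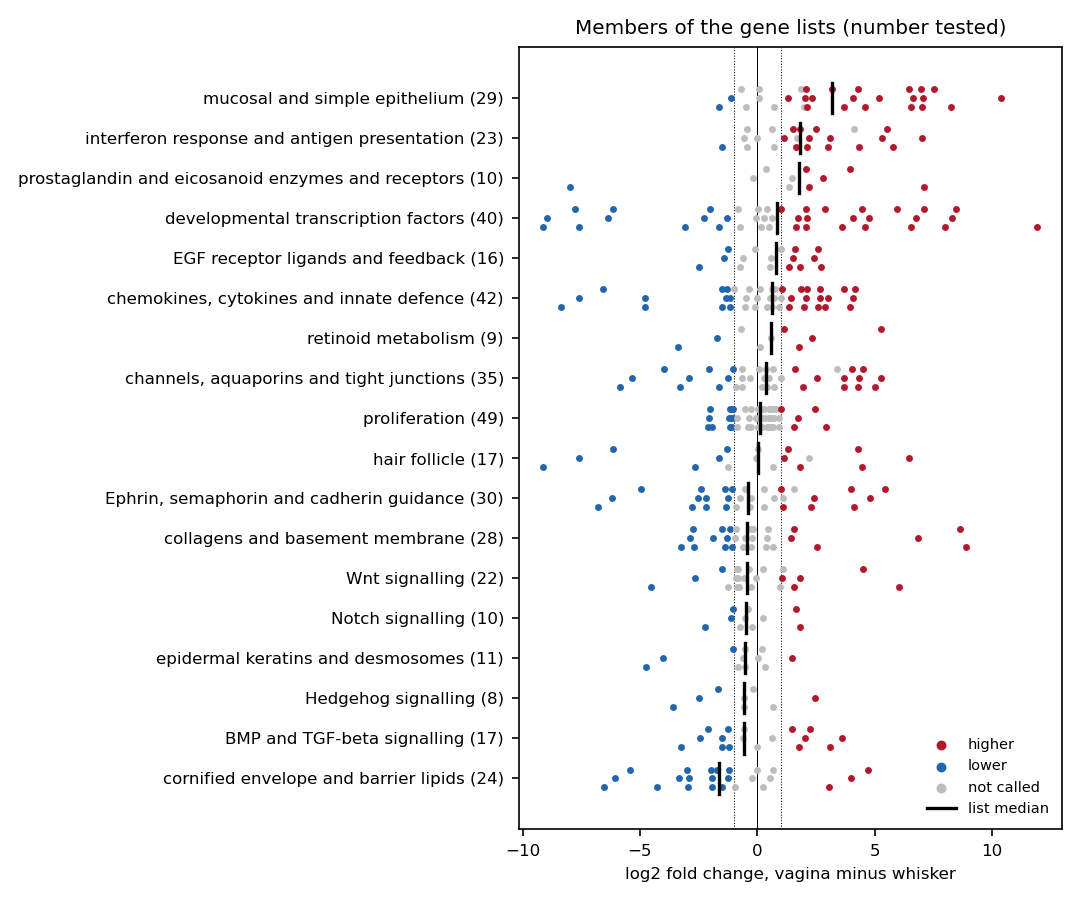
Log2 fold change of vagina minus whisker (horizontal) for each tested member of 18 gene lists, ordered by their median (black bars; dotted lines mark the 2-fold threshold). The list of mucosal and simple epithelium has its median at 3.17 and that of the cornified envelope at -1.62, and most other lists spread to both sides.

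Of 33 hair follicle genes listed, 17 could be tested, and these did not fall on the whisker side as a set. Lhx2, Gata3, Sox9 and Krt15 were not among them. In the study's microarrays Lhx2 and Gata3 were lower than in hair follicle cells in every non-hairy tissue compared, vagina included. The tested members therefore do not stand for hair follicle genes in general. Of the 17, 6 were higher and 6 lower in vagina, with a median log2 fold change of 0.04. Cd200 and Cd34, surface markers used for cells of the follicle bulge in human and mouse respectively, were higher in vagina. Cd200 was at 360 and 309 CPM in vagina and at 16.4 and 17.3 CPM in whisker (log2 fold change 4.31 ± 0.15), and Cd34 at 4.97 and 3.94 CPM against 0.0832 and 0 CPM. Satb1, a chromatin organizer, was at 4.36 and 5.01 CPM against 0.249 and 0.141 CPM. Of the ectodysplasin pathway, which starts hair placodes, the ligand Eda was at 16 and 12.4 CPM against 4.7 and 3.37 CPM (log2 fold change 1.82 ± 0.19) and its receptor Eda2r at 16.2 and 14.8 CPM against 6.86 and 5.58 CPM. The receptor Edar was at 1.72 and 1.86 CPM against 0.79 and 0.797 CPM (log2 fold change 1.15 ± 0.36). The calls of the receptors were less firm, since that of Edar was lost without vagina 2 (1.09), whisker 1 (1.14) or whisker 2 (1.15) and that of Eda2r without whisker 2 (1.17). The members lower in vagina were Tfap2b, Bnc2 and Tbx1, given above, with Lgr4, Dlx3 and En1. Lgr4, a receptor for R-spondins, was at 28.3 and 23.7 CPM in vagina and at 153 and 179 CPM in whisker (log2 fold change -2.67 ± 0.13). Dlx3, a homeobox factor of hair and epidermal differentiation, was at 6.04 and 5.01 CPM against 18.3 and 16.5 CPM (log2 fold change -1.65 ± 0.13). En1 was close to the threshold, at 0.726 and 1.06 CPM against 2.12 and 2.16 CPM, and its call was lost without vagina 1 (-0.99).

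Signaling pathways of hair growth could be tested only in part. Tested were 22 of 35 listed Wnt, 8 of 15 Hedgehog, 17 of 24 BMP and TGF-beta and 10 of 18 Notch genes. Among these, single members differed in either direction, and the pathways as wholes were not assessed. In the Wnt list 5 of 22 were higher and 3 lower (median -0.46), and Ctnnb1, the central effector beta-catenin, was at 657 and 651 CPM in vagina and at 672 and 688 CPM in whisker and was not called. Wnt4, a ligand needed for the female reproductive tract, was at 178 and 213 CPM against 57.6 and 51.6 CPM (log2 fold change 1.83 ± 0.13). Ccnd1, the cyclin D1, was at 1589 and 1769.8 CPM against 575 and 568 CPM (log2 fold change 1.55 ± 0.09). Dkk3, a member of the Dickkopf family, was at 3.33 and 1.86 CPM against 0.0416 and 0 CPM. Wnt3, a ligand of skin, was at 0.459 and 0.31 CPM against 1.29 and 0.984 CPM (log2 fold change -1.52 ± 0.41), a call that was lost without vagina 2 (-1.27). In the Hedgehog list 3 of 8 were lower and 1 higher (median -0.55). The lower members included the pathway's transcription factors, Gli1 at 0.956 and 0.797 CPM against 10.2 and 11.3 CPM (log2 fold change -3.58 ± 0.29) and Gli2 at 9.75 and 7.97 CPM against 48.2 and 49.9 CPM (log2 fold change -2.46 ± 0.12). Evc2, a ciliary component of Hedgehog reception, was at 9.14 and 10.2 CPM against 31.5 and 29.6 CPM.

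The BMP and TGF-beta list also held both directions. Of 17 tested, 6 were higher and 7 lower (median -0.59). Among ligands, Bmp3 was at 63.5 and 59.9 CPM in vagina and at 18.6 and 17.4 CPM in whisker, Bmp8b at 33.3 and 40.2 CPM against 8.61 and 6.75 CPM, and Gdf15, a ligand induced by stress, at 17.4 and 13.1 CPM against 1.33 and 1.12 CPM. Bmp2 went the other way, at 2.33 and 2.97 CPM against 15.4 and 12.8 CPM (log2 fold change -2.42 ± 0.20). Extracellular modulators were among the lower members. Fstl1, which binds BMPs, was at 13.5 and 11.6 CPM against 124 and 115 CPM (log2 fold change -3.24 ± 0.15), and Chrd, the antagonist chordin, at 2.56 and 2.22 CPM against 8.9 and 11.9 CPM (log2 fold change -2.08 ± 0.19). Of 10 Notch genes, 2 were higher and 3 lower, among them Numbl, a regulator of Notch, at 14 and 11.3 CPM against 57.9 and 60.8 CPM (log2 fold change -2.22 ± 0.11). The 2 higher members became 1 without vagina 1 or without whisker 1, because Mfng lost its call there (log2 fold changes 1.58 and 1.07).

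Of the ligands of the EGF receptor family, which drive keratinocyte growth, 4 were higher in vagina. Epgn, epigen, was at 96 and 103 CPM in vagina and at 14.6 and 15.7 CPM in whisker (log2 fold change 2.71 ± 0.15). Areg, amphiregulin, was at 104 and 110 CPM against 18.7 and 16.4 CPM (log2 fold change 2.60 ± 0.27), and Ereg, epiregulin, at 28.5 and 29.9 CPM against 6.03 and 5.01 CPM (log2 fold change 2.40 ± 0.20). Nrg1, the neuregulin that binds ERBB3 and ERBB4, was at 116 and 135 CPM against 37 and 34 CPM (log2 fold change 1.82 ± 0.12). Btc, betacellulin, was low in both groups and was not called (log2 fold change 1.01 ± 0.43). Genes that respond to the pathway did not share a direction. Etv4 was higher, at 48.1 and 48.2 CPM against 16.5 and 17 CPM, while Egr2 (12.2 and 11.8 CPM against 32.5 and 31.9 CPM) and Dusp4 (3.4 and 3.5 CPM against 17 and 22.5 CPM) were lower. Over the list, 7 of 16 were higher and 3 lower, with a median log2 fold change of 0.79.

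Enzymes of prostaglandin synthesis were higher in vagina. Ptgs1, the cyclooxygenase COX-1, was at 318 CPM in both vaginal samples and at 2.29 and 2.34 CPM in whisker (log2 fold change 7.09 ± 0.20, adjusted p = 1.81e-13). Ptgs2, the inducible COX-2, was at 23.2 and 24 CPM against 3.66 and 3.14 CPM (log2 fold change 2.79 ± 0.28). Ptges, the synthase that turns their product into prostaglandin E2, was at 117 and 135 CPM against 8.86 and 7.36 CPM (log2 fold change 3.95 ± 0.14). Both cyclooxygenases and the terminal synthase were therefore called higher. Ptger1, a receptor for prostaglandin E2, was at 1.03 and 1.37 CPM against 0.249 and 0.281 CPM, and Alox5, which starts leukotriene synthesis, at 6.69 and 8.11 CPM against 1.75 and 1.41 CPM. The single lower member was Pla2g2f, a secreted phospholipase A2 of skin, with 0 reads in vagina and 5.07 and 5.25 CPM in whisker, at least 41.7-fold lower. Of 10 members tested, 5 were higher and 1 lower. Of the 5 whose names came from the longer supplement alone, 1 was higher and 0 lower. The rest came from the study's list of differences from whisker cells, so the count is partly set by that choice.

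Genes of retinoid handling went both ways, with 4 of 9 higher and 2 lower. Crabp2, which carries retinoic acid to its receptors, was at 333 and 402 CPM in vagina and at 76.5 and 69.4 CPM in whisker (log2 fold change 2.33 ± 0.12). Dhrs3, which turns retinal back into retinol, was at 294 and 217 CPM against 70.9 and 76.4 CPM (log2 fold change 1.78 ± 0.12). Aldh1a1, which makes retinoic acid, was lower, at 7.19 and 7.53 CPM against 23.5 and 25.5 CPM (log2 fold change -1.73 ± 0.13).

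Interferon-response and antigen presentation genes were mostly higher in vagina. Of 23 tested, 14 were higher and 1 lower, with a median log2 fold change of 1.83, or 1.70 with genes without whisker reads set to their bound. Of the 10 whose names came from the longer supplement alone, 3 were higher and 0 lower. Ifit2, an interferon-induced inhibitor of translation, was at 28.4 and 29.4 CPM in vagina and at 0.125 and 0.328 CPM in whisker (log2 fold change 7.02 ± 0.48). Ifi47, an interferon-inducible GTPase, was at 29.2 and 26.8 CPM against 0.665 and 0.515 CPM, and Irgm, of the same class, at 52.9 and 53.4 CPM against 6.36 and 6 CPM (log2 fold change 3.10 ± 0.12). Cd74, the invariant chain of MHC class II, was at 1.41 and 0.975 CPM against 1.29 and 1.08 CPM and was not called. The lower member was Mr1, which presents vitamin metabolites to T cells, at 11.7 and 10.5 CPM against 31 and 33.1 CPM. The call of Gbp5, another induced GTPase at 1.49 and 1.15 CPM against 0.0416 and 0.0469 CPM, was lost without whisker 1 (log2 fold change 4.25) or whisker 2 (4.42).

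Chemokines, cytokines and defense genes went both ways. Csf3, the neutrophil growth factor G-CSF, was at 66.6 and 62.7 CPM in vagina and at 3.58 and 3.61 CPM in whisker (log2 fold change 4.16 ± 0.38). C3, the central complement protein, was at 27.9 and 27.7 CPM against 1.91 and 1.36 CPM (log2 fold change 4.08 ± 0.31), and Cxcl2, which attracts neutrophils, at 24.5 and 24.3 CPM against 1.87 and 1.27 CPM (log2 fold change 3.95 ± 0.44). Antagonists of the interleukin-1 family were on the whisker side. Il1r2, the decoy receptor, was at 0.497 and 0.31 CPM in vagina and at 83.4 and 76.1 CPM in whisker (log2 fold change -7.57 ± 0.31). Il36rn, the interleukin-36 receptor antagonist, was at 4.21 and 5.49 CPM against 123 and 141 CPM (log2 fold change -4.78 ± 0.15), and Il1f10, interleukin-38, at 0 and 0.0886 CPM against 14.1 and 14.9 CPM. Duox2, an oxidase that makes hydrogen peroxide at epithelial surfaces, was at 7.19 and 5.36 CPM against 163 and 187 CPM (log2 fold change -4.80 ± 0.26). Duoxa2, its maturation factor, was at 0.268 and 0.177 CPM against 21.7 and 23.8 CPM (log2 fold change -6.56 ± 0.69). The genes for the oxidase and its partner, which are neighbors 51 bases apart in GRCr8, were thus low together in vagina. The related Duox1 was at 101 and 99.3 CPM against 251 and 251 CPM (log2 fold change -1.32 ± 0.07). Of 42 genes in the list, 16 were higher and 11 lower, with a median of 0.65.

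Basement membrane collagens differed in their chains. Collagen IV is built from different chains, and their genes lie in head-to-head pairs that are read in opposite directions from a shared stretch of DNA. Col4a4 was at 54 and 49.9 CPM in vagina and at 0.0832 and 0.0937 CPM in whisker (log2 fold change 8.88 ± 0.56). Its neighbor Col4a3 was at 9.4 and 8.06 CPM in vagina with 0 reads in whisker, at least 65.8-fold higher. The ubiquitous pair moved the other way, Col4a1 at 7.15 and 8.24 CPM against 25.9 and 31.9 CPM (log2 fold change -1.90 ± 0.19) and Col4a2 at 3.94 and 5.4 CPM against 28.2 and 30.8 CPM (log2 fold change -2.68 ± 0.20). Both genes of either pair therefore shifted in the same direction. Loxl2, which crosslinks collagen IV, was at 10.5 and 7.53 CPM against 67.2 and 64.2 CPM (log2 fold change -2.87 ± 0.17). Of 28 collagens and basement membrane genes, 6 were higher and 10 lower, with a median of -0.42.

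The DNA between the starts of these paired genes is shown because both genes of a pair are transcribed away from it. In the RefSeq annotation of GRCr8, another assembly than the one the reads were aligned to, 412 bases separate the starts of Col4a4 and Col4a3, and 76 bases separate those of Col4a2 and Col4a1. The first pair of sequences gives the 250 bases before each start, 5′ to 3′ on that gene's strand, at chr9:91323578-91323827 (minus strand) for Col4a4 and chr9:91323740-91323989 (plus strand) for Col4a3. Capitals mark the 88 bases that both windows hold, in opposite orientation. The last sequence is the whole stretch between Col4a2 and Col4a1 at chr16:84885521-84885596, on the strand of Col4a1, with a GC box in capitals.
Col4a4: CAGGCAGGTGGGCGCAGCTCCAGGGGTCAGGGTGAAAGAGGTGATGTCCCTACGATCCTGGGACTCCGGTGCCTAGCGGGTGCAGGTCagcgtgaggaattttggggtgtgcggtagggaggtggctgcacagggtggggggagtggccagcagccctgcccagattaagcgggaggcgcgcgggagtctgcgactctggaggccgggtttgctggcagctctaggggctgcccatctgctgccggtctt
Col4a3: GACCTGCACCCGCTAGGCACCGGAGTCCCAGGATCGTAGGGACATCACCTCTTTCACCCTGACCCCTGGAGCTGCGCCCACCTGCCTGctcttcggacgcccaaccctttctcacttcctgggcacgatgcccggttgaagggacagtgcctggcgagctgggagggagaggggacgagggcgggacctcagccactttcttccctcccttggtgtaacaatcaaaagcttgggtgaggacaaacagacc
Col4a1 and Col4a2: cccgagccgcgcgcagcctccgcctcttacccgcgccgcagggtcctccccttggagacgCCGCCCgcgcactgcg

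The motifs searched on both strands were the GC box GGGCGG, the CCAAT box CCAAT and the TATA box TATAAA, none of which overlapped another. The window of Col4a3 held 1 GC box, outside the shared bases, and that of Col4a4 held 0 of the 3 motifs, where 30.5% of 33469 promoter windows of 250 bases hold a GC box, 34% a CCAAT box and 12.9% a TATA box. The stretch between Col4a2 and Col4a1 held 1 GC box and neither of the others, and 18.1% of windows of 76 bases hold a GC box. These are matches of letters only.

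Of 30 adhesion and guidance molecules tested, 12 were lower and 8 higher in vagina, with a median of -0.41. Cdh2, N-cadherin, was at 0.344 and 0.222 CPM in vagina and at 35.4 and 31.6 CPM in whisker (log2 fold change -6.80 ± 0.46). Nfasc, the axon-associated adhesion protein neurofascin, was at 0.382 and 0.62 CPM in vagina and at 36.3 CPM in both whisker samples (log2 fold change -6.18 ± 0.27). Chl1, a neural adhesion molecule, was at 0.382 and 0.399 CPM against 14.8 and 10.9 CPM (log2 fold change -4.96 ± 0.42). Proteins better known from nerve cells lay on both sides, since Cntnap1, a partner of axonal adhesion proteins, was higher in vagina at 30.8 and 26.6 CPM against 5.66 and 6.05 CPM (log2 fold change 2.29 ± 0.16). Its relative Cntnap2 (log2 fold change 4.80 ± 1.19) and the guidance ligand Sema3a (0.344 and 0.31 CPM with 0 reads in whisker) were also called higher, at low levels. Sema3e, a guidance ligand, was at 12.6 and 9.35 CPM against 69.8 and 82.7 CPM, and Itgb8, the integrin chain that activates TGF-beta, at 9.48 and 6.34 CPM against 42.4 and 41.1 CPM (log2 fold change -2.41 ± 0.18). Cdh17, a cadherin of gut epithelium, was higher in vagina at a low level, 1.49 and 1.73 CPM against 0 and 0.0469 CPM. Jam2, a junctional adhesion molecule, was at 15.1 and 12.7 CPM against 0.79 and 0.75 CPM.

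Ion transport genes were found on both sides. Cftr, the chloride channel of fluid-secreting epithelia, was at 12.7 and 11 CPM in vagina and at 0.665 and 0.375 CPM in whisker (log2 fold change 4.49 ± 0.63). Slc6a14, an amino acid transporter of mucosae, was at 12.1 and 17.1 CPM against 0.873 and 0.515 CPM (log2 fold change 4.35 ± 0.49). Cldn7, a claudin, was at 5.35 and 5.71 CPM against 0.208 and 0.328 CPM. Proton pumps lay on the whisker side. Atp12a, the non-gastric proton and potassium pump, was at 0.459 and 0.0886 CPM in vagina and at 13.9 and 13.1 CPM in whisker (log2 fold change -5.83 ± 0.84), and the V-ATPase subunits Atp6v1c2 and Atp6v0a4 had log2 fold changes of -3.96 ± 0.22 and -3.28 ± 0.18. Of 35 genes, 11 were higher and 9 lower.

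Proliferation genes showed a split between phases of the cycle that was not firm. Of 49 tested, 5 were higher and 12 lower, with a median of 0.13. The higher ones act before or during DNA replication. Ccne1, cyclin E1, was at 95.7 and 105 CPM in vagina and at 12.6 and 13.4 CPM in whisker (log2 fold change 2.95 ± 0.13), and the origin-licensing factor Cdc6 at 9.6 and 8.95 CPM against 1.79 and 1.59 CPM (log2 fold change 2.44 ± 0.40). The lower ones act in mitosis, except E2f2. Cenpf, a kinetochore protein, was at 22.2 and 33.5 CPM against 104 and 102 CPM (log2 fold change -1.92 ± 0.28), and Ccnb1, cyclin B1, at 16.6 and 24.3 CPM against 42.2 and 47.8 CPM (log2 fold change -1.17 ± 0.19). The vaginal samples differed here, with vagina 1 the lower of them in both genes. Without vagina 1 only 5 members were lower, and Ccnb1 was not among them (-0.88), and without whisker 1 7 were.

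Lists of markers for other cell types were examined in the same way. Of 14 fibroblast genes, 0 were higher and 4 lower in limma voom. Col1a1, the main fibrillar collagen, was at 15.9 and 16.5 CPM in vagina and at 18.5 and 33.2 CPM in whisker, and Col3a1 at 7.88 and 10.7 CPM against 3.74 and 9.23 CPM. Neither was called, and the 2 whisker samples differed from each other more than the groups did, so that without whisker 1 Col1a1 was called lower (-1.04) and without whisker 2 Col3a1 was called higher (1.27). The summed level of the fibroblast list was 519 to 533 CPM in vagina and 1254 to 1261 CPM in whisker, most of it Col5a2 (398 and 368 CPM against 1092 and 1062 CPM). Of 13 leukocyte genes, 4 were higher and 0 lower, with a sum of 415 to 435 CPM in vagina and 20.3 to 21.0 CPM in whisker. Nearly all of that sum was Arhgdib, a GDP-dissociation inhibitor of small GTPases at 349 and 366 CPM against 3.16 and 4.26 CPM, with Cd68 at 60.2 and 62.6 CPM against 12 and 10.7 CPM. Cd53 was at 0.191 and 0.0886 CPM in vagina, and Cd69 had 0 reads in all 4 samples. Coro1a, an actin-binding protein of leukocytes, was called higher at 0.421 and 0.576 CPM in vagina with 0 reads in whisker, and so was Lcp1, the plastin of leukocytes, at 0.917 and 1.46 CPM against 0.166 and 0.0937 CPM. Cfp, properdin, was at 2.29 and 2.30 CPM against 2.95 and 4.26 CPM and was not called.

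Endothelial and ciliated cell markers were low in both groups, and the muscle list was not. Of 6 endothelial genes 4 were higher, with sums of 16.7 to 16.9 CPM in vagina and 4.70 to 5.25 CPM in whisker. Of 13 ciliated cell genes 7 were higher, with sums of 25.3 to 26.8 CPM and 10.0 to 12.3 CPM, and only 4 were without either whisker sample. Of 9 muscle genes 3 were higher and 4 lower, with sums of 228 to 302 CPM and 887 to 950 CPM, of which Cald1 was at 506 and 567 CPM and Trim63, a ubiquitin ligase, at 363 and 364 CPM in whisker. Mlph, which carries melanosomes and other vesicles, was at 3.63 and 4.65 CPM against 0.0416 and 0.0937 CPM. The part of these cell types in the results was not tested.

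A gene of the Y chromosome separated the groups. Eif2s3y, a translation factor, had 0 reads in both vaginal samples and was at 117 and 124 CPM in whisker, at least 975-fold lower. The identifier listed as Ddx3, an RNA helicase with copies on both sex chromosomes, was at 0 and 0.0443 CPM against 114 and 120 CPM, and which of the copies it stands for could not be checked. Reads of both were thus at or near 0 in the vaginal culture and abundant in the whisker clone, and sex cannot be told apart from tissue in this comparison.

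The same tissues were compared after recovery from the transplants, in 4 other samples. The recovered vaginal cells were a bulk culture, as before, but the recovered whisker cells are labelled subclone 14 where those before transplantation were clone 7, so for whisker the clone grown and the transplantation cannot be told apart. There 756 genes (5.68%) were higher and 825 (6.2%) lower in recovered vagina than in recovered whisker cells. Of the 1152 genes lower before transplantation, 442 (38.4%) were also lower afterwards and 55 were higher, and of the 1317 higher before, 435 (33.0%) were also higher afterwards and 59 were lower. The difference of these differences was itself called for 854 genes (6.42%) in favor of vagina before transplantation and for 675 (5.07%) in favor of whisker. Esr1 was at 0.754 and 0.696 CPM against 0.414 and 0.205 CPM (log2 fold change 1.26, adjusted p = 0.0671). Prom1 was at 10.3 and 9.68 CPM in recovered vagina and at 11.1 and 9.91 CPM in recovered whisker, and its difference before transplantation was larger by 7.14 on the log2 scale (adjusted p = 1.9e-11).

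**Figure D4:**
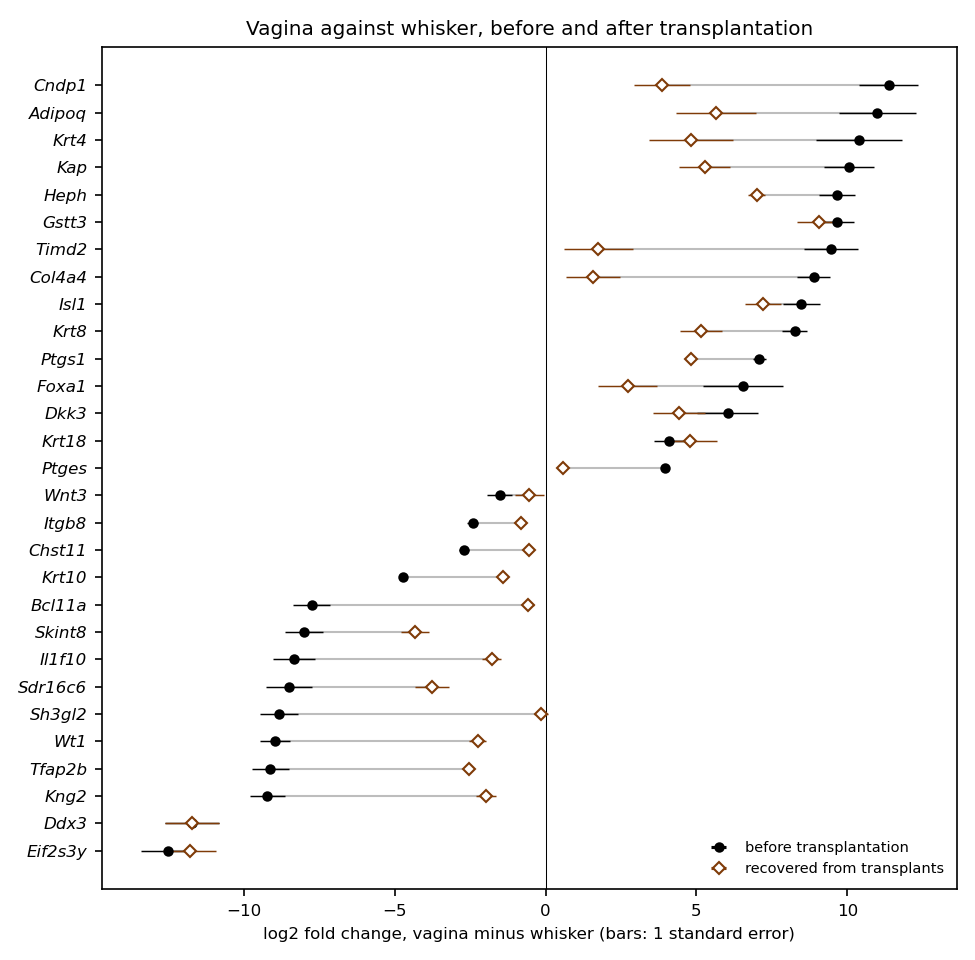
Log2 fold change of vagina minus whisker with 1 standard error, before transplantation (black circles) and in recovered cells (open diamonds), for 29 genes of the highest and lowest named genes and of those the study names. Gstt3, Isl1 and Eif2s3y kept wide differences, while Timd2, Col4a4, Bcl11a and Sh3gl2 had much smaller ones.

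The collagen IV genes changed between the stages. In recovered cells Col4a3 had 0 reads in all 4 samples, and Col4a4 was at 0.0838 and 0.104 CPM in vagina and at 0 and 0.0409 CPM in whisker. Col4a1 was at 52.3 and 60.8 CPM in recovered vagina against 19.9 and 16.4 CPM in recovered whisker, and Col4a2 at 48.5 and 52.8 CPM against 13.7 and 12.2 CPM. Both were thus higher in vagina after transplantation (log2 fold changes 1.65 and 1.97) and lower before it. Bnc2 also reversed, at 4.94 and 5.01 CPM in recovered vagina against 0.046 and 0.164 CPM in recovered whisker (log2 fold change 5.45 against -7.59 before). Cspg4, the proteoglycan NG2, was at 0.191 and 0.222 CPM in vagina and at 1.16 and 1.64 CPM in whisker before transplantation, and at 31.9 and 31.3 CPM against 0.23 and 0.246 CPM in recovered cells. Tfap2b was at 8.42 and 8.14 CPM in recovered vagina and at 45.2 and 51.8 CPM in recovered whisker, a difference that was called in the same direction as before (log2 fold change -2.55).

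Set beside cultured bladder, trachea and thymus cells before transplantation, the vaginal cells shared some of these marks and not others. That comparison uses the same vaginal samples, so its values are given side by side only. The bladder and trachea donors were of about the same age as the vaginal donor, but the thymus donor was younger. The part of donor age in these differences was not tested. Against the mean of the other 3 tissues, 1009 genes (7.59%) were higher and 1266 (9.52%) lower in vagina. Esr1 was at most 1.34 CPM in these tissues, and its log2 fold change against their mean was 5.08 ± 0.23. Estrogen receptor transcripts were thus higher in vagina than in both whisker and the mean of the other tissues. Krt4 was at 16.2 and 69.6 CPM in bladder, 363 and 396 CPM in trachea and 53.2 and 33.5 CPM in thymus. It was higher in vagina than in their mean (log2 fold change 3.01) but not particular to vagina. Krt8 was at 1656 and 1700.1 CPM in bladder, 1147 and 1095 CPM in trachea and 411 and 331 CPM in thymus, so vagina lay between whisker and these tissues. Krt10 was the reverse, between 0.911 and 1.79 CPM in the 3 tissues, with vagina above them (log2 fold change 5.44) and far below whisker. Csta and Dmkn were also higher in vagina than in the mean of the 3 tissues (log2 fold changes 5.48 and 4.99). Tfap2b was at or below 0.154 CPM in the 3 tissues, as in vagina.

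**Figure D5:**
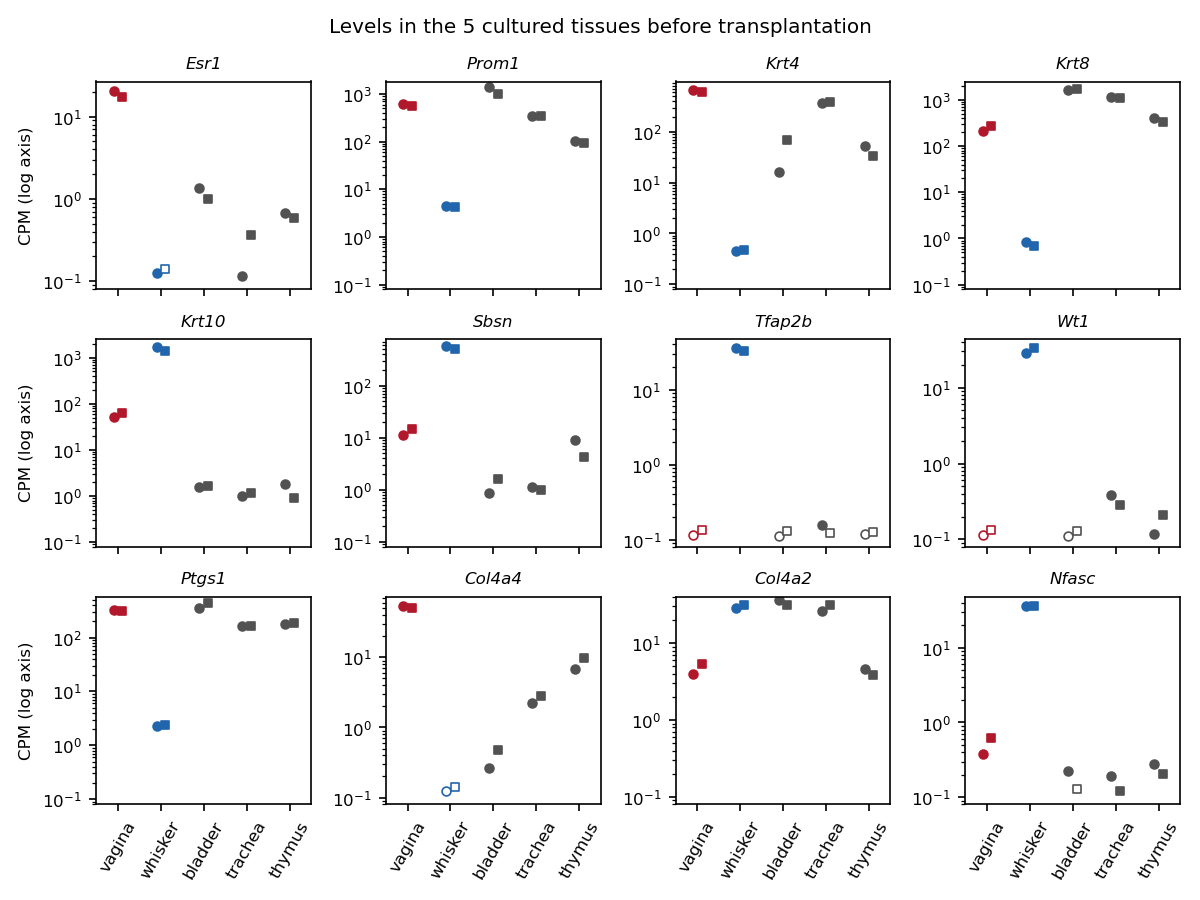
CPM (log axis) of 12 named genes in the 2 samples of each tissue before transplantation, with vagina in red, whisker in blue and bladder, trachea and thymus in gray (open symbols, fewer than 3 reads, drawn at the level of 3 reads). Ptgs1 and Krt8 are low in whisker and at 100 CPM or more in the other tissues, Tfap2b, Wt1 and Nfasc are high in whisker, and Krt10 and Sbsn in vagina lie between whisker and the other tissues.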

How the data were processed

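RNA was sequenced from sorted EGFP-positive cells (stranded mRNA libraries). Per the labels and methods, the authors trimmed reads with cutadapt 1.8, aligned them to Rnor_6.0 with STAR 2.5.2b, and counted them per Ensembl gene with HTSeq 0.6.1. The deposited values are raw counts per gene and sample, without normalization. Reads aligning to several places were not counted, which lowers genes with near-identical copies. The summary rows of each table were left out, and reads on no gene made up 14.8% to 19.3% of the uniquely aligned reads in the 4 samples compared.

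Counts were scaled by TMM (edgeR 4.0.16). Groups were contrasted by limma 3.58.1 with voom weights (R 4.3.3), with 1 mean for each of 10 groups, 20 samples, 10 residual degrees of freedom, and genes of at least 1 CPM in at least 1 sample (13302 of 32494). Calls needed a Benjamini-Hochberg adjusted p under 0.05 across all genes and an absolute log2 fold change of at least 1. A fold against a group with 0 reads was taken against 3 reads per library and is a lower bound, and with 1 to 3 reads in a group the ratio has an exact 95% binomial counting interval. A fitted log2 fold change of such a gene is no bound. Counts were also simulated for 13302 genes of this comparison, with the spread between samples fitted to these data. Planted were 100 changes of each size, all in genes of at least 1 CPM. Of changes of 1.5 on the log2 scale 96% were recovered and of changes of 3 100%, with 2 false calls. Spread between animals that these samples may lack was not part of the simulation.

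Symbols were taken only from the identifier pairs in the study's supplements, the longer of which was shortened as given here, and their comparison columns (fold changes and p-values) were not used. Named are the 10 highest and 10 lowest called genes of at least 10 CPM in the higher group, up to 6 called members in each direction of 25 gene lists, genes the study names (12 of 35 had an identifier), and markers of other cells and of sex. Further list members, among them Emx2, Krt19, Cdh1, Dsp, Dsg3, Ctnnb1, Duox1, Cd53, Cd69, Ecm1, Btc, Coro1a and Sema3a, were named after their values were seen, as was Cspg4 for its change after transplantation. A few genes that meet these rules are not reported here, but are part of the counts. The comparison, lists and tests were chosen with earlier results of these data known. Promoter sequences were matched by symbol in the RefSeq table of GRCr8, which held 155 of the 204 genes considered for naming. The alternatives were edgeR's quasi-likelihood test, DESeq2 1.42.0, its size factors, other count filters, the replicate number as a block, a fit of only the samples compared, a stricter fold change and leaving out each sample.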

Additional observations from a re-analysis of the deposited data

Results flagged for a closer look

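Of the 29 genes that are among the highest and lowest or that the study names, 21 had a difference between vagina and whisker that itself differed between cells before transplantation and recovered cells, by the interaction term of the limma model. The values below are the log2 difference before minus that after transplantation, and for genes without reads in a group they depend on the fit's handling of 0 and are no bounds. The recovered whisker cells are labelled subclone 14 and those before clone 7, so clone and transplantation cannot be told apart for whisker.

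Among genes higher in vagina, the difference was larger before transplantation by 7.51 for Cndp1, 5.36 for Adipoq, 5.56 for Krt4 and 4.78 for Kap. It was larger by 2.66 for Heph, 7.71 for Timd2, 7.31 for Col4a4, 3.09 for Krt8, 2.26 for Ptgs1 and 3.36 for Ptges. Krt4 (adjusted p = 0.0495) and Adipoq (adjusted p = 0.0396) were closest to the threshold.

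Among genes lower in vagina, the value was -1.60 for Itgb8, -2.15 for Chst11, -3.33 for Krt10, -7.18 for Bcl11a and -3.66 for Skint8. It was -6.56 for Il1f10, -4.76 for Sdr16c6, -8.68 for Sh3gl2, -6.71 for Wt1, -6.57 for Tfap2b and -7.24 for Kng2. In all 21 genes the recovered cells of vagina and whisker thus lay closer to each other than the cells before transplantation did. Most of these genes were chosen for their large difference before transplantation, so this shared direction is a description and no independent evidence. The way this came about differed between genes. Sh3gl2 was at 0.0765 and 0 CPM in vagina and 21.5 and 21.7 CPM in whisker before, and at 2.77 and 2.44 CPM and 2.85 and 2.91 CPM after. Krt4 fell in vagina from 683 and 622 CPM to 15.8 and 14.8 CPM. In whisker it stayed low, at 0.457 and 0.469 CPM before and 0.737 and 0.368 CPM after. Cndp1 likewise fell in vagina, from 96.8 and 102 CPM to 1.05 and 0.835 CPM, and was near 0 in whisker at both stages.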

How the results depend on the processing

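At an absolute log2 fold change of at least 2, 726 genes were higher and 456 lower in vagina than in whisker before transplantation, 358 higher and 269 lower in recovered cells, and 410 higher and 584 lower against the mean of bladder, trachea and thymus. Under every other alternative each of these counts stayed within 1.5 times its value. Before transplantation edgeR's quasi-likelihood test called 1336 higher and 1151 lower, DESeq2 1289 and 1133, and limma without a count filter 1642 and 1418. Leaving out each sample in turn gave 1212 to 1310 higher and 1053 to 1166 lower genes, where the lone sample of a group is assumed to vary like the other groups. With the replicate number as a block the counts were 1331 and 1160. The numbers did not pair the samples (correlation of deviations -0.026), so the block is given only for completeness. No named gene changed sign where it was called in the main fit or in the alternative. Some genes that were not called did change sign between settings, such as Cd74 (log2 fold change -0.27 to 0.25). At an absolute log2 fold change of at least 2, 54 of 204 genes considered for naming lost their call, and 20 of 50 list counts fell by more than 1.5 times. Under the other alternatives, those that leave out a sample aside, none of these genes changed its call (Wnt3 was not tested under the stricter count filter), and those that did so without a sample mostly had log2 fold changes near 1 or few reads. Among the lists, lower fibroblast genes fell from 4 to 2 without vagina 2, and 1 became higher without whisker 2 or in the fit of only the samples compared. Depth limits genes near 3 reads per library, whose size of difference is open to the counting error given with them.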
